A study of Mus musculus with 48 samples.

Results

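REST and the 3 CoREST genes Rcor1, Rcor2 and Rcor3 were followed in RNA bound to tagged ribosomes of the mouse nucleus accumbens, the part of the ventral striatum tied to reward. These 4 genes were taken by symbol out of 54838 genes in the count tables, and all 4 passed the filter on low counts in every fit. The choice was made on measured values: Rcor3 had been seen lower with fentanyl in part of the D1 libraries. The members were thus chosen by Rcor3 counts in D1, and fentanyl against water in D1 libraries is described for them and not tested. D1 libraries came from Drd1Cre x Rpl22HA mice, in which Cre follows the dopamine D1 receptor gene, and D2 libraries from A2ACre x Rpl22HA mice, in which Cre follows the adenosine receptor gene Adora2a of neurons that carry the dopamine D2 receptor. Animals of every group, the water groups too, carried Cre and Rpl22, a ribosomal protein, with a haemagglutinin (HA) tag, by which an anti-HA antibody drew out the polyribosomes (RiboTag). The treatments were fentanyl abstinence, after the opioid agonist fentanyl, and water abstinence, each in males and females, with tissue collected at day 10. The route, dose and animals' age are not given in the sources used here. With 6 libraries for each combination of cell type, sex and treatment there were 8 groups and 48 libraries. A library was made from 4 pooled mice, and every SD and p-value is over such pools.

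REST is a zinc finger protein that binds the RE1 element near many neuronal genes and holds them down outside neurons and in neural progenitors, and its level falls as neurons mature. One end of the protein recruits SIN3 with class I histone deacetylases, and the other recruits CoREST, the scaffold that joins HDAC1 and HDAC2 to the histone demethylase LSD1 (gene Kdm1a). Rcor1, Rcor2 and Rcor3 encode 3 versions of that scaffold. In cell studies RCOR3 bound LSD1 but supported demethylation of nucleosomes less well than RCOR1 did. In adult neurons REST has been linked to seizure, ischaemia and ageing, and LSD1 complexes to stress responses.

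Rest is ENSMUSG00000029249 on chromosome 5 of GRCm38, 77265491 to 77286432, plus strand. Rcor1 is ENSMUSG00000037896 on chromosome 12, 111039351 to 111115901, plus strand. Rcor2 is ENSMUSG00000024968 on chromosome 19, 7267325 to 7275225, plus strand. Rcor3 is ENSMUSG00000037395 on chromosome 1, 192098546 to 192138062, minus strand. Counts are exon counts per gene, made with an annotation whose release is not given in the sources used here. Positions, lengths and overlaps are those of GENCODE M21, which draws 5 merged exons in Rest, 12 in Rcor1, 13 in Rcor2 and 11 in Rcor3. Other genes overlapped 8.34% of the exonic bases of Rcor3, among them Gm10516 and Gm26879 on the opposite strand, and the library kit does not mark strand. No other gene overlapped the exons of Rest or Rcor2.

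The regulatory sequences of these genes are shown to place them in the known circuit in which brain microRNAs and REST act on each other. Mature mmu-miR-9-5p, encoded by Mir9-1, Mir9-2 and Mir9-3, targets REST in studies of human and mouse cells, and its star strand miR-9-3p targets CoREST. Capitals mark the seed, bases 2 to 8, in the microRNAs (RefSeq, GRCm38.p6) and its perfect complement in the 3′ untranslated regions. These regions are those of the longest coding transcript of each gene (GENCODE M21, GRCm38), and other transcripts were not searched.
mmu-miR-9-5p: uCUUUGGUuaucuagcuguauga
mmu-miR-9-3p: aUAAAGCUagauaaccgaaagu
Rest site: cttttctgaggcaaACCAAAGgtatatt
Rcor3 site: tttgagagatctacACCAAAGtgttttt

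The match to miR-9-5p occurred 1 time each in Rest, at base 3192 of a 3′ untranslated region of 3448 bases, and in Rcor3, at base 2315 of 2374, and in neither Rcor1 nor Rcor2. The letters ACCAAAG stood in 12.1% of 20953 such regions in the annotation. The match to miR-9-3p, AGCTTTA, occurred in none of the regions searched for the 4 genes and in 11.1% of all regions. A match of 7 letters describes the sequence and not a used site.

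RefSeq promoters of 300 bases (250 before and 50 after the start, GRCm38.p6) were at hand for 3 of the 4 genes, Rcor1, Rcor2 and Rcor3. They are shown for Rcor2 and Rcor3, the CoREST genes whose levels varied most in these libraries. Capitals mark the right arm of the RE1 element, GGACAGC, in Rcor2 and every CpG in Rcor3.
Rcor2, chr19:7267144-7267443, plus strand: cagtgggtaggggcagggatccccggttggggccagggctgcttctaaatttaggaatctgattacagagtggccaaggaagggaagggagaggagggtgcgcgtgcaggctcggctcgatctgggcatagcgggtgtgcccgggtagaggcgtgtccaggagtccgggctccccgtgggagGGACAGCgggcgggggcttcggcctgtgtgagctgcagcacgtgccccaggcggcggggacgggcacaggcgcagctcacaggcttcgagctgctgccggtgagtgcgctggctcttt
Rcor3, chr1:192137991-192138290, minus strand: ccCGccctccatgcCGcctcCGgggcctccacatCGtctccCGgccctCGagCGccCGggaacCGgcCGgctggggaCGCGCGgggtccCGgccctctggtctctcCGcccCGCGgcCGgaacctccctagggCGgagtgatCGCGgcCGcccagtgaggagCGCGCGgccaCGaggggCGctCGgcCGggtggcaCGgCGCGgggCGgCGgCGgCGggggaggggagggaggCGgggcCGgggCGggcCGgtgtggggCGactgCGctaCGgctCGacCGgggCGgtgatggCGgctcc

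The Rcor3 promoter held 47 CpGs, more than 98.6% of 32851 promoters, and was 81.7% G and C. The Rcor2 promoter held 21 CpGs and the Rcor1 promoter 31. On both strands, GGACAGC stood in 6.56% of promoters and the left arm, CAGCACC, in 7.14%, and the Rcor2 match was the single match among these 3 promoters.

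Libraries held 20211543 to 42584762 reads in genes, and the 4 genes drew 26 to 1335 reads each per library. D1 libraries carried the markers of their neurons at a summed 2938 to 4183 CPM (reads scaled to a common library total with TMM factors), against 546 to 768 CPM in D2 libraries, for 8 markers such as Drd1, Pdyn and Isl1. The 7 D2 neuron markers were at 1488 to 3914 CPM in D1 and 15226 to 22404 CPM in D2 libraries. The 12 vascular markers summed to 58.1 to 95.3 CPM in D1 and 396 to 716 CPM in D2, and astrocyte, oligodendrocyte and microglia markers were also lower in D1. The summed markers of cholinergic and GABA interneurons were higher in D1, and those of pallial excitatory neurons largely so (383 to 879 CPM in D1 and 101 to 627 CPM in D2). Of the D1 libraries, 6 stood apart in their base composition. Their GC index, the mean centred log2 CPM of the 10% of genes richest in G and C minus that of the poorest 10%, was −0.59 to −0.41, against −0.17 to 0.05 in the other 18 D1 libraries and 0.01 to 0.35 in the 24 D2 libraries. They were 2 of the D1 female fentanyl, 1 of the D1 female water, 1 of the D1 male fentanyl and 2 of the D1 male water libraries. Comparisons of named genes whose call changed without them are given both ways. Within-group SDs and correlations over the 48 libraries include them.

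The 4 genes differed widely in level and in steadiness. Per kilobase of the longest coding transcript, Rcor1 averaged 5.68 ± 0.377 CPM over the 48 libraries, Rcor3 2.55 ± 0.747, Rcor2 1.93 ± 0.441 and Rest 0.387 ± 0.145 (SD, n = 48). Rcor1 was thus the most abundant CoREST transcript and Rest the scarcest of the 4, while Rcor2 and Rcor3 overlapped. Their order turned with the length used: per kilobase of all merged exons, which are 13622 bases long in Rcor3 against 3791 in its longest coding transcript, Rcor2 averaged 1.72 ± 0.394 CPM and Rcor3 0.710 ± 0.208. Rcor1 was the steadiest, with a within-group SD of 0.0843 on the log2 scale, smaller than that of all but 1.78% of 2694 genes within 1.5-fold of its level. Rcor3 lay at the other end, with an SD of 0.352, larger than that of 91.7% of 2031 genes of like level. Rcor2 had an SD of 0.301, larger than that of 72.4% of 1695 genes, and Rest 0.292, larger than that of 31.5% of 1595 genes.

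**Figure D1:**
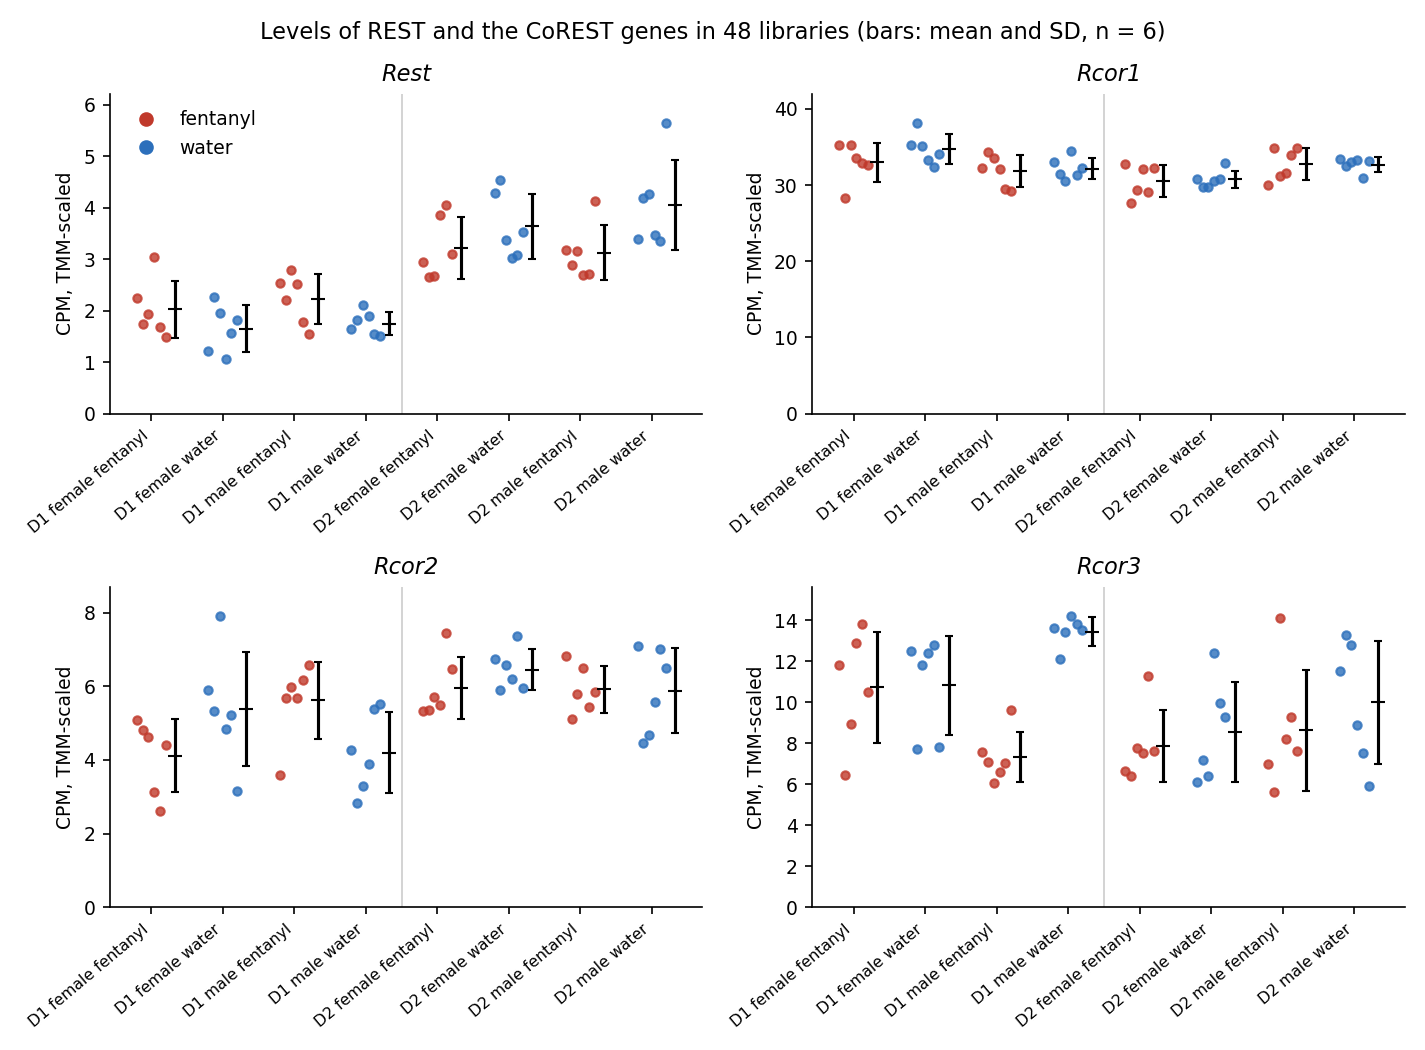
Levels of the 4 genes in each of the 48 libraries, in CPM scaled with TMM factors, by group of cell type, sex and treatment. Points are libraries and bars the mean and SD of 6. Rcor1 stays between 27.6 and 38.2 CPM, Rest is lower in D1 than in D2 groups, and the Rcor3 libraries of D1 male fentanyl (6.05 to 9.61 CPM) lie below those of D1 male water (12.1 to 14.2 CPM).

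Rest, the repressor itself, was scarce in both pull-downs, and more so in D1. In the water groups it had a lowest, median and highest level of 1.06, 1.72 and 2.26 CPM in D1 libraries, against 3.03, 3.49 and 5.65 CPM in D2 libraries (n = 12 each). Every D1 water library was below every D2 water library, a separation shown in that direction by 6.11% of 18270 genes. Means were 1.70 ± 0.351 CPM in D1 and 3.85 ± 0.761 CPM in D2, a log2 difference of −1.18 (SE 0.125, 95% interval −1.43 to −0.93, edgeR adjusted p = 3.35e-11). Of all genes tested in this comparison, 53.4% passed in either direction and 26.6% were lower in D1, so a difference between the pull-downs was common. In the fentanyl groups Rest had 1.49, 2.07 and 3.04 CPM in D1 libraries, against 2.66, 3.02 and 4.12 CPM in D2 libraries, and the groups overlapped. That difference was −0.58 (SE 0.123, 95% interval −0.83 to −0.33, edgeR adjusted p = 8.31e-05), where 54.1% of 18270 genes passed.

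REST is known to be more abundant in non-neuronal cells, and markers of such cells moved with this difference. In water, all 12 vascular markers were lower in D1 (median log2 difference −4.08), as were 9 of 10 astrocyte (median −1.97), 8 of 8 oligodendrocyte (median −1.32) and 8 of 8 microglial markers (median −1.45). Their part in the Rest difference was not tested, because the mean log2 CPM of these markers was 1.57 to 2.40 in D1 libraries, against 3.85 to 4.63 in D2 libraries, and cannot be told apart from the pull-down. Within a pull-down, Rest was not shown to follow that score: Pearson's r was 0.23 over the 24 D1 libraries (permutation p = 0.288, adjusted over 20 relations 0.494) and 0.37 over the 24 D2 libraries (permutation p = 0.079, adjusted 0.494), group means taken off. Spearman's rho was 0.24 in D1 (permutation p = 0.259) and 0.32 in D2 (permutation p = 0.133), and without the 2 farthest libraries r was −0.01 in D1 and 0.33 in D2. In such pull-downs, fewer cells of a type and less RNA per cell cannot be told apart.

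With fentanyl, Rest did not pass in D2 libraries. It had 2.66, 3.02 and 4.12 CPM in D2 fentanyl libraries, against 3.03, 3.49 and 5.65 CPM in D2 water libraries, and the groups overlapped. The log2 difference was −0.28 (SE 0.107, 95% interval −0.50 to −0.06, edgeR adjusted p = 0.998). No gene of 17327 passed there (0%) with edgeR, DESeq2 or limma, and 737 had an unadjusted edgeR p under 0.05. By sex the D2 difference was −0.18 in females (3.21 ± 0.6 CPM with fentanyl, 3.64 ± 0.628 CPM with water) and −0.37 in males (3.12 ± 0.528 CPM with fentanyl, 4.05 ± 0.880 CPM with water), with edgeR adjusted p-values of 0.964 and 0.713 (SD, n = 6 each). All 10 astrocyte markers were below 0 in D2 fentanyl against water over both sexes (median −0.21), as were 6 of 8 oligodendrocyte markers (median −0.11). Of the vascular markers 7 of 12 were above 0 (median 0.02), and of the microglial markers 6 of 8 (median 0.09). None of these markers passed. Their part was not tested beyond a fit with the score of non-neuronal markers, in which Rest was at −0.26. That score pools these marker types, which moved in different directions. It was 4.28 ± 0.17 in D2 fentanyl and 4.33 ± 0.226 in D2 water libraries (SD, n = 12 each). The fit thus cannot show the part of any single type, and nothing is read from it. In D1 libraries Rest averaged 2.12 ± 0.510 CPM with fentanyl and 1.70 ± 0.351 CPM with water (SD, n = 12 each). As a description, that is a log2 difference of 0.32 (SE 0.137, 95% interval 0.04 to 0.60), with 0.30 in females and 0.35 in males. The values in D1 and in D2 thus had opposite signs, and the response in D1 minus that in D2 was 0.60 for Rest (SE 0.175, 95% interval 0.25 to 0.95), the furthest from 0 of the 4 genes and likewise given without a test. For this response 0 of 18270 genes passed with edgeR (0%), and 825 had an unadjusted edgeR p under 0.05.

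Rcor1, the founding CoREST scaffold gene, varied little throughout. In water it had a lowest, median and highest level of 30.5, 33.2 and 38.2 CPM in D1 libraries, against 29.7, 31.7 and 33.4 CPM in D2 libraries. The difference was 0.08 (SE 0.0378, 95% interval 0.00 to 0.15, edgeR adjusted p = 0.0799), and it passed without the 6 D1 libraries of low GC index (0.10, edgeR adjusted p = 0.0483). In fentanyl it was 0.03 (95% interval −0.04 to 0.11, edgeR adjusted p = 0.469). With fentanyl in D2 libraries Rcor1 averaged 31.7 ± 2.32 CPM, against 31.7 ± 1.44 CPM with water (SD, n = 12 each) (log2 −0.00, 95% interval −0.08 to 0.07, edgeR adjusted p = 0.998). In D1 libraries it averaged 32.4 ± 2.30 CPM with fentanyl and 33.5 ± 2.13 CPM with water, a difference of −0.05 (95% interval −0.14 to 0.04).

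Rcor2, a scaffold version known from neural progenitors and embryonic stem cells, was lower in D1 libraries. In water it had 2.84, 5.02 and 7.91 CPM in D1 libraries, against 4.45, 6.34 and 7.37 CPM in D2 libraries, with wide overlap. The log2 difference was −0.37 in water (SE 0.117, 95% interval −0.60 to −0.13, edgeR adjusted p = 0.00718) and −0.31 in fentanyl (SE 0.117, 95% interval −0.54 to −0.07, edgeR adjusted p = 0.0246). Its coding transcript is the richest in G and C of the 4 genes, 61.6% against 43.2 to 48.4%, and its level stood low in the libraries of low GC index. The index is itself built from levels of genes rich in G and C, so the low level is no independent observation. Those 6 D1 libraries had 2.62 to 3.6 CPM, against 3.89 to 7.91 CPM in the other 18 D1 libraries and 4.45 to 7.44 CPM in D2 libraries. Without the 6, the difference was −0.22 in water (edgeR adjusted p = 0.0385) and −0.15 in fentanyl (edgeR adjusted p = 0.164). With the GC index in the fit it was −0.00 in water (SE 0.0957, edgeR adjusted p = 0.997) and 0.15 in fentanyl (edgeR adjusted p = 0.176). The index was on the whole lower in D1, so it cannot be told apart from the pull-down.

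Within the 18 other D1 libraries Rcor2 was not shown to follow the index (Pearson's r 0.30, permutation p = 0.230, adjusted over 20 relations 0.494, Spearman's rho 0.27, permutation p = 0.276, and r 0.22 without the 2 farthest). Among the 24 D2 libraries r was 0.52 (permutation p = 0.00983, adjusted 0.197), rho 0.52 (permutation p = 0.00992, adjusted 0.198), and r without the 2 farthest 0.41. With fentanyl in D2 libraries Rcor2 averaged 5.94 ± 0.712 CPM, against 6.17 ± 0.921 CPM with water, and did not pass (log2 −0.05, 95% interval −0.22 to 0.11, edgeR adjusted p = 0.998). In D1 libraries the sexes differed in sign. D1 females had 4.12 ± 1.00 CPM with fentanyl and 5.39 ± 1.55 CPM with water (−0.39, 95% interval −0.82 to 0.03). D1 males had 5.62 ± 1.04 CPM with fentanyl and 4.20 ± 1.09 CPM with water (0.42, 95% interval −0.01 to 0.84). As descriptions these were −0.30 (SE 0.141) and 0.33 (SE 0.141) without the 6 libraries.

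**Figure D2:**
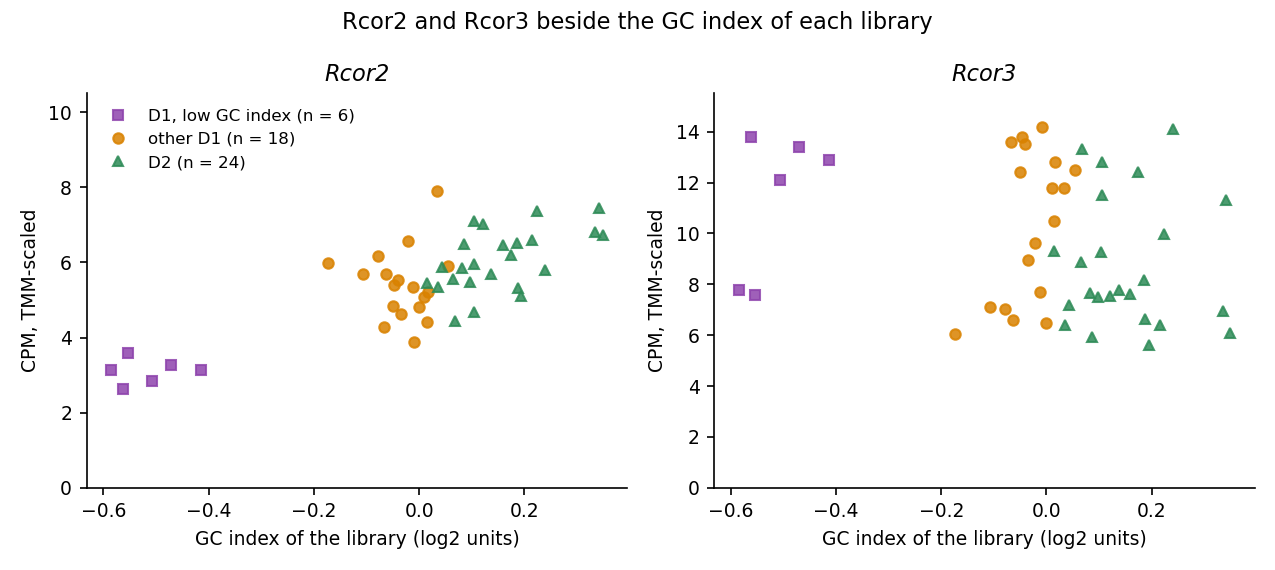
Level of Rcor2 and Rcor3 in CPM scaled with TMM factors (vertical axes) against the GC index of the library in log2 units (horizontal axes), for 6 D1 libraries of low index, the other 18 D1 and 24 D2 libraries. Rcor2 lies at 2.62 to 3.6 CPM in the 6 and at 3.89 CPM or more in all others, while Rcor3 spans 7.58 to 13.8 CPM in the 6 and 5.62 to 14.2 CPM in the others.

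Rcor3 is the gene by which the set was chosen, and its levels in D1 libraries are a description. In D1 males it had a lowest, median and highest level of 6.05, 7.07 and 9.61 CPM with fentanyl, against 12.1, 13.6 and 14.2 CPM with water, and the groups did not overlap. Lower values without overlap in D1 males were found for 0.0655% of 16782 genes, from which nothing is read here, since this contrast made the choice. Means were 7.33 ± 1.23 CPM with fentanyl and 13.4 ± 0.719 CPM with water (SD, n = 6 each), a log2 difference of −0.87 (SE 0.158, 95% interval −1.20 to −0.55). In D1 females it had 6.47, 11.1 and 13.8 CPM with fentanyl, against 7.71, 12.1 and 12.8 CPM with water, and the groups overlapped fully, with a difference of −0.02 (SE 0.156, 95% interval −0.34 to 0.31). Over both sexes the D1 difference was −0.45 (SE 0.137, 95% interval −0.73 to −0.16). Without the 6 libraries of low GC index it was −0.92 in D1 males, −0.28 in D1 females and −0.60 over both, so the value in females moved most. Within the 18 other D1 libraries Rcor3 was not shown to follow the index (Pearson's r 0.45, permutation p = 0.0642, adjusted over 20 relations 0.494). Spearman's rho there was 0.51 (permutation p = 0.0332, adjusted 0.332), and r without the 2 farthest was 0.54. Among the 24 D2 libraries r was 0.06 (permutation p = 0.783, adjusted 0.824).

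In D2 libraries, which took no part in the choice, Rcor3 was tested and did not pass. It had 5.62, 7.63 and 14.1 CPM with fentanyl, against 5.91, 9.07 and 13.3 CPM with water, and the groups overlapped over nearly their whole range. The log2 difference was −0.16 (SE 0.147, 95% interval −0.47 to 0.14, edgeR adjusted p = 0.998). By sex it was −0.12 in females (7.87 ± 1.76 CPM with fentanyl, 8.55 ± 2.43 CPM with water, edgeR adjusted p = 0.986) and −0.21 in males (8.63 ± 2.94 CPM with fentanyl, 10.0 ± 3.02 CPM with water, edgeR adjusted p = 0.862; SD, n = 6 each). The response in D1 minus that in D2 was −0.28 (95% interval −0.67 to 0.11), given without a test, and −0.43 without the 6 libraries of low GC index.

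Ordered by mean, the 8 groups placed both D1 male groups at the ends. This order holds the contrast by which Rcor3 was chosen and is a description. D1 male water stood highest at 13.4 ± 0.719 CPM. It was followed by D1 female water (10.8 ± 2.41), D1 female fentanyl (10.7 ± 2.71), D2 male water (10.0 ± 3.02), D2 male fentanyl (8.63 ± 2.94), D2 female water (8.55 ± 2.43), D2 female fentanyl (7.87 ± 1.76) and D1 male fentanyl (7.33 ± 1.23). Each group after the first differed from its neighbour in this order by less than 1 SD of either. The D1 male water group was also the tightest, and every other group held at least 1 library at or below 7.71 CPM. In water, Rcor3 averaged 12.1 ± 2.18 CPM in D1 and 9.28 ± 2.72 CPM in D2, a difference of 0.39 (95% interval 0.11 to 0.66), and in fentanyl 9.03 ± 2.68 CPM in D1 and 8.25 ± 2.34 CPM in D2, a difference of 0.10 (95% interval −0.17 to 0.38), both as descriptions.

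Genes that overlap Rcor3 or lie next to it had few reads. Gm10516 was at 1.27 to 2.15 CPM in D1 male fentanyl and 1.1 to 2.14 CPM in D1 male water libraries. Gm26879 reached at most 0.185 CPM and Gm37055 had no read in any library. Traf5, the neighbouring gene, reached at most 0.152 CPM. Reads counted as ambiguous between genes, 4.553 to 6.146% of reads in the 48 libraries, were set apart in a summary line and given to no gene. The overlap and strand settings behind that line are not given in the sources used here. The part of the overlap in Rcor3 counts was not tested. Reads were summed over all Rcor3 transcripts, so a change in total and a change among transcripts of unlike length cannot be told apart.

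**Figure D3:**
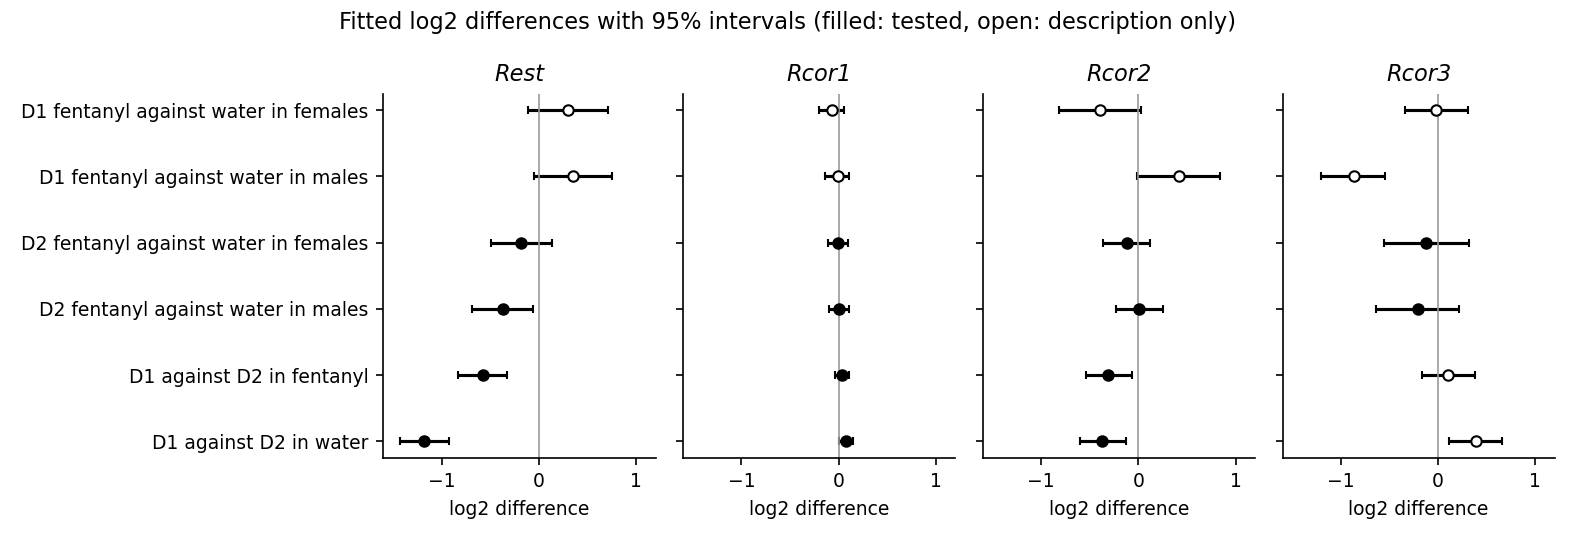
Fitted log2 differences (horizontal axes) of the 4 genes with 95% intervals in 6 comparisons (rows); filled points were tested and open points are descriptions. Rest lies furthest below 0 in D1 against D2 in water (−1.18), Rcor1 stays near 0 in all, and Rcor3 lies furthest below 0 in D1 males (−0.87).

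Between the sexes, none of the 4 genes passed in water where it was tested, and Rcor3 in D1 was not tested. In D1 water libraries the female minus male log2 difference was −0.09 for Rest, 0.11 for Rcor1 and 0.36 for Rcor2 (edgeR adjusted p = 0.961, 0.810 and 0.823), where 0.0477% of 16782 genes passed. For Rcor3 it was −0.31 (95% interval −0.63 to 0.01), as a description. In D2 water libraries it was −0.15 for Rest, −0.09 for Rcor1, 0.13 for Rcor2 and −0.23 for Rcor3 (edgeR adjusted p = 0.749, 0.513, 0.713 and 0.734), where 0.0847% of 17706 genes passed. The widest of these intervals, for Rcor3 in D2, ran from −0.66 to 0.21.

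The partners of CoREST were compared in the same way, by lists chosen with earlier results of these data known. Of the 9 genes of the deacetylase and demethylase core, 2 passed as higher and 4 as lower in D1 against D2 in water (median log2 difference −0.05, against −0.01 for all 18270 genes, of which 26.8% passed as higher and 26.6% as lower). Kdm1a, the LSD1 demethylase, singled out after its value was seen, did not pass (0.06, edgeR adjusted p = 0.117). The deacetylase genes were slightly lower in D1: Hdac1 was at 18.0 ± 1.94 CPM in D1 and 21.8 ± 1.66 CPM in D2 (−0.28), and Hdac2 at 213 ± 15 CPM in D1 and 237 ± 8.23 CPM in D2 (−0.15). The zinc finger partner Zmym3 (−0.15) and the HMG-box subunit Hmg20b (−0.18) were lower too, while Gse1 (0.49) and Zmym2 (0.37) were higher. Hmg20b did not pass without the 6 D1 libraries of low GC index (−0.11, edgeR adjusted p = 0.122), and 27.9% of the exonic bases of Gse1 were overlapped by other genes. For Hdac1, 35.5% of its stretches of 50 bases also occur in other genes, so its counts are uncertain.

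Of 16 further corepressors and chromatin partners, 4 were higher and 6 lower in D1 (median −0.12), where 53.4% of all genes passed in either direction. Cdyl, which links REST to the histone methyltransferase G9a, was at 7.47 ± 1.70 CPM in D1 and 5.54 ± 0.559 CPM in D2 (0.42). The small phosphatases that REST recruits were lower, Ctdsp1 at 1.35 ± 0.447 CPM in D1 and 2.85 ± 0.782 CPM in D2 (−1.07, edgeR adjusted p = 9e-08) and Ctdsp2 with a difference of −0.24. The SIN3 subunit Sap30 was lower (−0.40) and the scaffold Sin3a higher (0.16, edgeR adjusted p = 0.026), but Sin3a did not pass without the 6 libraries (0.10, edgeR adjusted p = 0.111) and was at −0.00 with the GC index in the fit.

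Of 13 genes that act on REST protein, its splicing or its transport, 8 were higher and 2 lower in D1 (median 0.20), against 26.8% higher and 26.6% lower among all genes. Htt, which holds REST in the cytoplasm of neurons, was at 41.8 ± 7.25 CPM in D1 and 27.8 ± 3.10 CPM in D2 (0.59, edgeR adjusted p = 3.15e-11). Srrm4, the neuronal splicing factor that turns Rest transcripts to the truncated REST4 form, was at 24.7 ± 2.38 CPM in D1 and 16.8 ± 2.54 CPM in D2 (0.56). Usp15 (0.46), a deubiquitinase of REST, and Prickle1 (0.45), which takes part in its nuclear transport, were higher as well. Btrc, the ubiquitin ligase subunit that marks REST for degradation, was lower (84.0 ± 12.1 CPM in D1 and 103 ± 9.33 CPM in D2, −0.29).

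Of 9 tested DNA-binding factors that also recruit CoREST, 3 were higher and 3 lower in D1 (median −0.38), beside 26.8% and 26.6% of all genes; Gfi1, Gfi1b and Snai1 had too few reads. Tal1, a blood and vascular factor with few reads, was at 0.0162 ± 0.0250 CPM in D1 and 0.300 ± 0.161 CPM in D2 (−4.01), and Nr2e1, a factor of neural stem cells and astrocytes, at 0.709 ± 0.303 CPM in D1 and 2.57 ± 0.597 CPM in D2 (−1.86). Insm1 was lower too (−0.69), while Nr2c2 (0.78, with 31.2% of exonic bases overlapped by other genes), Zfp516 (0.22) and Bcl11a (0.14) were higher. These stand beside the lower vascular and astrocyte markers of D1 libraries, whose part was not tested.

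**Figure D4:**
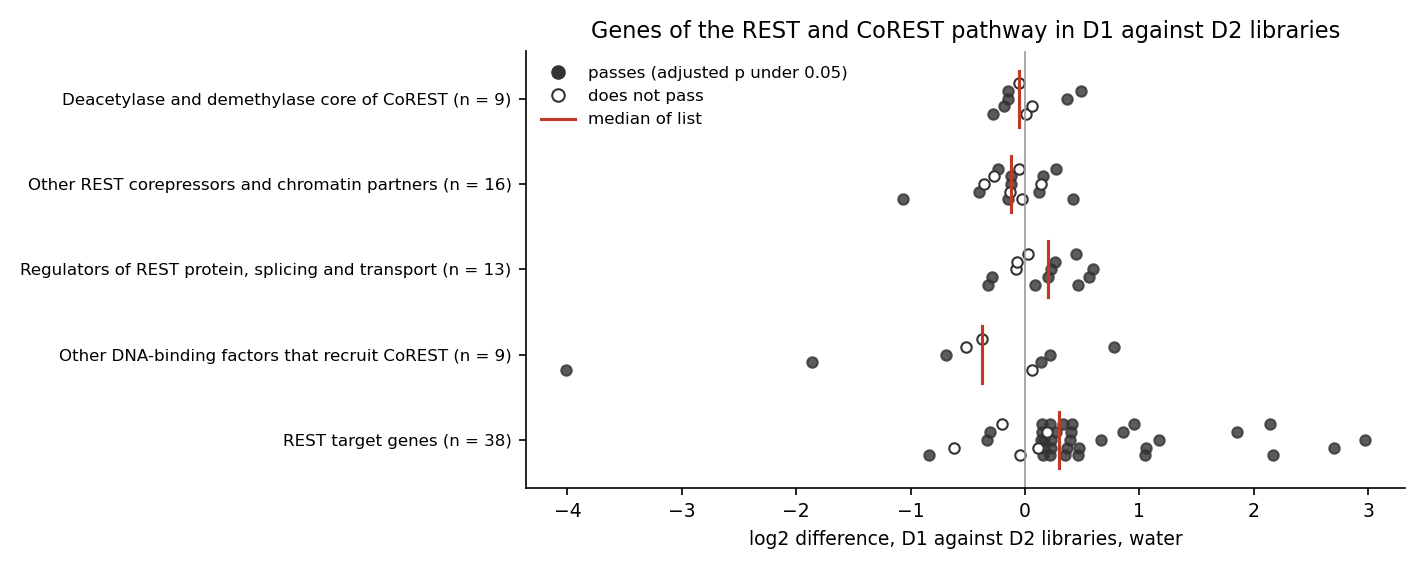
Log2 difference of D1 against D2 water libraries (horizontal axis) for each tested gene of 5 lists (rows). Filled points pass at an edgeR adjusted p under 0.05, open points do not, and red lines are list medians, from −0.38 for other DNA-binding factors to 0.30 for REST target genes.

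Of 38 tested genes known as REST targets, 30 were higher and 3 lower in D1 water libraries, where Rest itself was lower (median 0.30, range −0.84 to 2.97). Over all genes, 26.8% were higher in D1. The furthest were Crh, corticotropin-releasing hormone, at 11.4 ± 2.76 CPM in D1 and 1.47 ± 0.581 CPM in D2 (2.97), and Chrm4, the muscarinic M4 receptor, at 18.5 ± 6.35 CPM in D1 and 2.87 ± 0.500 CPM in D2 (2.70). Tac1, the substance P precursor (1.85), is also a marker of D1 neurons, and Chat (2.17) and Slc18a3 (2.14) are markers of cholinergic interneurons, a type whose 6 markers summed to 5.89 to 20.3 CPM in D1 and 1.1 to 3.67 CPM in D2 libraries. Stmn2, a regulator of microtubules in neurites, was at 445 ± 79.3 CPM in D1 and 198 ± 45.8 CPM in D2 (1.17). The 3 lower genes, found after their values were seen, were the microRNA hosts Mir124a-1hg (−0.84) and Mir9-3hg (−0.33) and the calcium buffer Calb1 (−0.31). Another microRNA host of the list, Mir124-2hg, passed as higher (0.23, edgeR adjusted p = 0.000559). Mir9-3hg, a host of miR-9, was at 17.1 ± 2.01 CPM in D1 and 21.5 ± 2.49 CPM in D2 water libraries. Most genes of the list are neuronal, and non-neuronal markers were lower in D1. Their part in the count was not tested. In the fentanyl groups 29 of the 38 were higher and 3 lower in D1 (median 0.31), where 54.1% of all genes passed in either direction. Rest differed there by −0.58, against −1.18 in water. In D1 fentanyl against water the list median was −0.02, with Rest at 0.32 as a description. A link between Rest and the list was not tested.

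With fentanyl, no gene of the 5 lists passed in either cell type, where 0% of genes passed in all. In D2 libraries list medians lay between −0.01 and 0.01. The smallest p in D2 was that of Hipk2, a homeodomain-interacting kinase, at 11.3 ± 2.20 CPM with fentanyl and 13.5 ± 1.80 CPM with water (−0.27, edgeR adjusted p = 0.998). In D1 libraries list medians lay between −0.04 and 0.01. The smallest p there was that of Mir124-2hg, a host gene of miR-124, at 20.6 ± 2.87 CPM with fentanyl and 24.1 ± 2.21 CPM with water (−0.23, edgeR adjusted p = 0.998). Crh followed, at 8.70 ± 2.09 CPM with fentanyl and 11.4 ± 2.76 CPM with water (−0.39, edgeR adjusted p = 0.998). Ctdsp1 had 0.938 ± 0.309 CPM with fentanyl and 1.35 ± 0.447 CPM with water in D1 (−0.52, edgeR adjusted p = 0.998). No gene of 16369 passed in D1 with edgeR or limma and 2 passed with DESeq2, and 610 had an unadjusted edgeR p under 0.05.

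The genes whose levels ran most like those of each member were sought over the 48 libraries with group means taken off, among 11485 genes of at least 2 CPM. For Rcor3 the highest Pearson correlations were with Car7 (0.56), Pcdhb15 (0.54), Lrrc75a (0.54), Nsmce3 (0.51) and Slc7a1 (0.49). Over the 24 D1 libraries with no mean taken off, those among the highest were with Mapk11 (0.66), Mtx1 (0.61), Alkbh6 (0.60) and Cbx8 (0.57). For Rest they were with Zfp36l2 (0.53), Atad5 (0.53), Rab29 (0.52), Txnip (0.51) and Zfp30 (0.51), and for Rcor1 with Ksr2 (0.53), Slc25a30 (0.51), Mest (0.49), Sv2c (0.48) and Fam19a5 (0.48). Rcor2 stood apart with higher values, among them those for Dazap1 (0.84), Atp6v0d1 (0.83), Mib2 (0.83) and Gpr162 (0.83), and the 100 genes most like it had a median of 58.5% G and C against 50.1% for all genes compared. Among the members themselves the highest was 0.35, between Rest and Rcor1, and Rcor3 stood at −0.20 with Rest, −0.03 with Rcor1 and −0.04 with Rcor2. These values share libraries and depth and carry no p. Those for Rcor3 over the 24 D1 libraries also hold the contrast by which Rcor3 was chosen, and nothing is read from them.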

How the data were processed

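Exon counts per gene were deposited for 48 libraries. Per the submitters' processing notes, the authors aligned reads to GRCm38 with TopHat2 2.0.8 and made the counts with HTSeq, whose version, annotation release and strand setting are not given in the sources used here. Per the labels' protocols, libraries were made with Smart-Seq v4 from 10 ng of RNA, a kit without strand or molecular identifiers, and each pooled 4 punches of 14 gauge from each of 4 mice. The 5 summary lines, 22.9 ± 3.77% of reads (26.3% in D1, 19.5% in D2), were left out. The depth, 20211543 to 42584762 reads in genes, limits scarce genes such as Rest most.

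Counts as deposited were tested with edgeR 4.0.16 in R 4.3.3 (TMM factors, filterByExpr with a count minimum of 10 and a total of 15, quasi-likelihood test), adjusted after Benjamini-Hochberg over all genes tested, with a threshold of 0.05. Fentanyl against water was fitted apart in D1 and in D2 libraries, with sex as a term or with group means, and D1 against D2 over all 48 libraries. Correlations used log2 CPM with a prior count of 2, group means taken off, and 100000 permutations. Alternatives were other size factors, no filter, a replicate block, limma 3.58.1, DESeq2 1.42.0, a non-neuronal marker covariate, leaving out single libraries, and, chosen after seeing the data, a GC index covariate and leaving out 6 D1 libraries. The fits were tested on simulated data. Same-numbered libraries did not deviate together (18 of 72 pairs had a correlation above 0.1), so the numbers were not taken as pairs. None of the 120 replicate pairs compared held copies. The members and lists were chosen with earlier results of these data known. Named list genes were the 6 largest differences among those that passed in D1 against D2 in water, or up to 3 of the smallest p with fentanyl; likeness was named for the top 5 genes. Some genes that these rules name are not reported here; counts and medians of lists include them.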

Additional observations from a re-analysis of the deposited data

Results flagged for a closer look

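Single libraries lay far from the others of their group in 5 of 32 sets of 6 (4 genes in 8 groups), by Dixon's test at 95%, where chance alone gives about 1 in 20. Rest was at 4.12 CPM in D2 male fentanyl replicate 6, with the nearest library of that group at 3.18 CPM. Rcor1 was at 32.9 CPM in D2 female water replicate 6 (nearest 30.8 CPM) and at 30.9 CPM in D2 male water replicate 5 (nearest 32.5 CPM). Rcor2 was at 3.6 CPM in D1 male fentanyl replicate 1 (nearest 5.69 CPM), which is one of the 6 D1 libraries of low GC index. Rcor3 was at 11.3 CPM in D2 female fentanyl replicate 5 (nearest 7.76 CPM), and Gm10516, which overlaps it, was at 2.67 CPM in that library, the highest of the 48.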

How the results depend on the processing

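Rest in D1 against D2 kept its direction and call under every alternative run, at −1.25 to −1.12 in water when single libraries were left out. Rcor1 with fentanyl in D2 was −0.00 as reported, 0.00 without the filter, with limma and with the GC index in the fit, and −0.01 to 0.01 without single libraries. Rcor1 in D1 against D2 in water passed with limma (0.09, adjusted p = 0.0426) and without the 6 D1 libraries of low GC index (0.10, adjusted p = 0.0483). Rcor2 in D1 against D2 did not pass with the GC index in the fit, at −0.00 in water and 0.15 in fentanyl, and in fentanyl neither with limma (−0.20, adjusted p = 0.0725) nor without the 6 libraries (−0.15, adjusted p = 0.164). The index nearly separates D1 from D2 libraries, and the cause was not tested. Sin3a was at −0.00 with the index. Genes passing with fentanyl, 0 in every edgeR fit with the filter, were 1 without the filter, 1 with limma and 4 with DESeq2 in D2 females, 1 with DESeq2 in D2 males, 2 with DESeq2 in D1, and 2 with limma and 4 with DESeq2 in D1 males. For the D1 minus D2 response, 6 passed with DESeq2 against 0 with edgeR. Between females and males, 13 passed in D1 water with DESeq2 against 8 with edgeR, and 24 with limma and 106 with DESeq2 in D2 water against 15 with edgeR.

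With the replicate number as a block (replicate block), which does not pair the samples, Rest in D1 against D2 in water was −1.18 (edgeR adjusted p = 2.63e-10) and 9692 genes passed, and no member changed its call. Spearman's rho in place of Pearson's r gave 0.397 for Txnip, 0.384 for Pcdhb15 and 0.535 for Mapk11. Depth limits Rest most, at 26 to 176 reads a library.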
